A study of Mus musculus with 4 samples.

Results

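The region examined was the Sox9 gene with its downstream flank, taken from 10 kb upstream of the transcription start site (TSS) to 1 Mb downstream of it. Its members were the ATAC-Seq peaks whose summits lay in that window, 1 per called interval. There were 440 of them among 485134 peaks in the 4 peak lists. Cho replicate 1 contributed 62 of its 76242 peaks, Cho replicate 2 153 of 148330, WT 82 of 90971 and the deletion library 143 of 169591. Sox9 lay on the plus strand of chr11:112643538-112649074 in NCBIM37 (mm9). The positions of Cho replicate 2 followed GRCm38 (mm10), so peaks were compared by their distance from the TSS. Sets of 4 values below follow the order Cho replicate 1, Cho replicate 2, WT and Del.

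The study profiled primary chondrocytes of mouse rib cartilage, which its methods describe as isolated from newborn animals. The 2 Cho libraries were labelled as replicates with no genotype given. The study's methods describe its ATAC-Seq replicates as biological, while the labels name no cultures or animals. The WT library came from wild-type mice, and the library called Del here came from mice homozygous for deletions of E160 and E308, named E160(delta/delta) and E308(delta/delta) in the labels. E160 and E308 are chondrocyte enhancers upstream of Sox9 and outside the region described here, and they were removed from the germline by CRISPR/Cas9 editing, so all cells of those mice lack them. WT and Del had 1 library each, so their differences compare 2 libraries and carry no test.

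Sox9 encodes an HMG-box transcription factor that cartilage cells need to form and to make their matrix genes such as Col2a1 and Acan. Its distant enhancers are best known from the gene desert upstream, while the downstream side holds a long noncoding transcript, 2610035D17Rik, and then a group of protein-coding genes. In ATAC-Seq the Tn5 transposase inserts adapters into accessible DNA, and a peak marks a stretch where insertions pile up above the background.

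The sequences at 7 downstream summits are printed so that the strongest shared sites can be read. Each runs along the plus strand of NCBIM37 for 60 bp on either side of a summit, and capitals mark matches to TGANTCA, the AP-1 motif, or to ACAAT, the SOX motif, on either strand. The first 6 are those of the 10 strongest sites past the gene, by geometric mean fold enrichment among sites called in all 4 libraries, whose sequence overlaps no annotated exon. They lie at +245.0 kb (chr11:112888470-112888590), +219.0 kb (chr11:112862500-112862620), +764.4 kb (chr11:113407883-113408003), +383.0 kb (chr11:113026530-113026650), +279.0 kb (chr11:112922434-112922554) and +472.8 kb (chr11:113116269-113116389), in the order of that mean. The last, at +42.1 kb (chr11:112685627-112685747), had the highest fold enrichment of the Del peaks in the window without an overlapping WT peak.
+245.0 kb: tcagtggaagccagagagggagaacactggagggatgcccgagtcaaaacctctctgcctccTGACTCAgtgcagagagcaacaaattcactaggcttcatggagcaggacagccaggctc
+219.0 kb: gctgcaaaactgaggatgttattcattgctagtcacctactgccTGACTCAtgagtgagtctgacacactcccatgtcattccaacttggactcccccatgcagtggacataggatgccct
+764.4 kb: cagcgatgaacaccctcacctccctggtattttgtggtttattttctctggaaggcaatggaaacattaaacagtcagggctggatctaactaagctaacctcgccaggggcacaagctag
+383.0 kb: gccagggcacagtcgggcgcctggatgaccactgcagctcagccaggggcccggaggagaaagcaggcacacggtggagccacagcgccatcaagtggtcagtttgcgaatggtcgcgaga
+279.0 kb: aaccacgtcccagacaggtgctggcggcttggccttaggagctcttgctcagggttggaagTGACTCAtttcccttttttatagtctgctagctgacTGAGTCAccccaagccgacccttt
+472.8 kb: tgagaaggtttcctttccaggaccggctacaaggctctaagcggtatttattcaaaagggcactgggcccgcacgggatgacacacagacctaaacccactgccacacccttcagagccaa
Del, +42.1 kb: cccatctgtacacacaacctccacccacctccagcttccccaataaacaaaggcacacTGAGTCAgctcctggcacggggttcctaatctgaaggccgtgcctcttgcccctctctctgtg
The AP-1 motif was found 1 time in each of the +245.0 kb, +219.0 kb and +42.1 kb sequences and 2 times in the +279.0 kb sequence. It was absent from the +764.4 kb, +383.0 kb and +472.8 kb sequences, and none of the 7 held ACAAT. Only that SOX motif was searched, here and below, so other forms of SOX site were not looked for.

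The whole lists differed in ways that touch each comparison. Depth estimated from the background ranged from 4622 tags per Mb in WT to 20817 in Cho replicate 2, with 6841 in Cho replicate 1 and 8697 in Del. Cho replicate 1 used 1 constant background for 100% of its peaks, whereas only 26.7% to 40.4% of peaks in the other lists sat at their library's background and the rest had a higher local one. Fold enrichment is the deposited ratio of the reads at a summit to those expected there, each plus 1, so it has another reference in Cho replicate 1. Cho replicate 1 also listed 2 mitochondrial peaks with fold enrichments up to 116717. Cho replicate 2 listed 3, of at most 1.91, and WT and Del listed none. Whether mitochondrial reads entered the background of Cho replicate 1, and their part in its depth estimate and its low pileups over library background, was not tested. Within 1.5 kb of the upstream distances that the names E308 and E160 give in kb, WT had highest fold enrichments of 15.4 and 13.4. Del had 3.07 (4 reads) at the first and no peak at the second. Of 10 chondrocyte marker promoters, 9 had a peak in Cho replicate 2, WT and Del and 5 in Cho replicate 1, while Comp had none in any library. Neither blood promoter measured, Ptprc and Cd3e, had a peak in any library. Of 4 fibroblast and osteoblast promoters, 3, 4, 3 and 4 had a peak, of 3 endothelial ones 2, 1, 2 and 2, and of 3 muscle and 3 epithelial ones 0, 1, 1 and 1 each. Over all protein-coding promoters, 58.6%, 64.7%, 62% and 67.8% had a peak, so these short lists do not by themselves identify the cells. The part of other cell types in the peaks described was not tested.

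The Sox9 promoter carried a peak in all 4 libraries. Within each library taken singly, 58.6%, 64.7%, 62% and 67.8% of protein-coding promoters carried a peak. The Sox9 summits lay 58, 11, 118 and 26 bp upstream of the TSS. Distances in Cho replicate 2, here and throughout, are from the RefSeq start, which lies 14 bp upstream of the GENCODE start used for the others. The summit pileups were 43, 188, 37 and 57 reads. The BC006965 transcript, a long noncoding RNA on the other strand, starts 0.248 kb upstream and shares the peak in Cho replicate 1, WT and Del. For Cho replicate 2 the start of this transcript was taken from the GRCm38 annotation. The strongest peak within 1 kb of that start, with a fold enrichment of 6.03, was not among the peaks of the window. That value therefore does not describe the promoter shared with Sox9. By distance from the Sox9 TSS, the promoter summit of Cho replicate 2 also lay within 1 kb of the NCBIM37 start of BC006965.

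In the libraries with a local background, that background was high at the Sox9 promoter. The local background there exceeded the library background 7.68-fold for Cho replicate 2, 8.35-fold for WT and 9.07-fold for Del. Local backgrounds were lower than this at 96.2% of all Cho replicate 2 peaks, 96.8% of WT peaks and 98.4% of Del peaks. The local background was also high at a summit inside the gene. At the intronic summit 1.34 kb downstream in WT it was 9.61 times the library background, and at the matching Del summit, 1.35 kb downstream, it was 10.6 times. Just past the gene it fell to 4.98 times in WT and 5.46 times in Del.

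The rank of the promoter depended on the background used. Among promoters with a peak, Sox9 was at percentiles 72.2, 27.0, 27.2 and 23.98 by fold enrichment. By summit pileup over library background it was at percentiles 72.2, 66.0, 68.1 and 79.2. Only Cho replicate 1, with its constant background, kept the same rank by both. Fold enrichment averaged 15.2 ± 4.80 (SD, n = 2) over the Cho replicates. The mean pileup over library background was 63.8 ± 45.7 (SD, n = 2), with 31.4 in Cho replicate 1 and 96.1 in Cho replicate 2.

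Between WT and Del the promoter peak was close in size. The log2 ratio of fold enrichment, Del over WT, was −0.13. The ratio of summit pileups over library background was 0.887, with a 95% interval of 0.576 to 1.38 that covers counting error only. Among 11185 promoters called in both libraries the median log2 ratio was 0.01 and the median pileup ratio 0.836, and 26.7% of them had a lower log2 ratio than Sox9. The Sox9 promoter was therefore within the spread of other promoters, and a difference inside that interval could not be resolved at this depth.

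Smaller summits flanked the main one. About 0.6 kb upstream, Cho replicate 2 had a summit with a fold enrichment of 5.54, WT one with 4.49 and Del one with 5.05. In Cho replicate 1 the same positions lay inside its single promoter interval of 1461 bp. Downstream, at 0.751 kb, Cho replicate 1 had 4.65 and Del 4.17. In the intron at 1.34 kb, WT had 3.81 and Del 3.28. The other summits inside the gene were each called in 1 library. They were 3.38 in an exon at 3.46 kb in Cho replicate 1, and 2.11 at 2.67 kb and 3.79 at 5.10 kb in Cho replicate 2.

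Past the 3′ end, a site at 6.34 kb was called in 3 libraries. Cho replicate 2 had 7.13 there, WT 5.01 and Del 5.66, and Cho replicate 1 listed no peak. Del had a further summit at 5.92 kb, with a fold enrichment of 4.75. The wide Cho replicate 2 interval of the 6.34 kb site, 921 bp long, also covered that position. No library listed a peak between 10 kb and 1 kb upstream of the TSS.

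**Figure D1:**
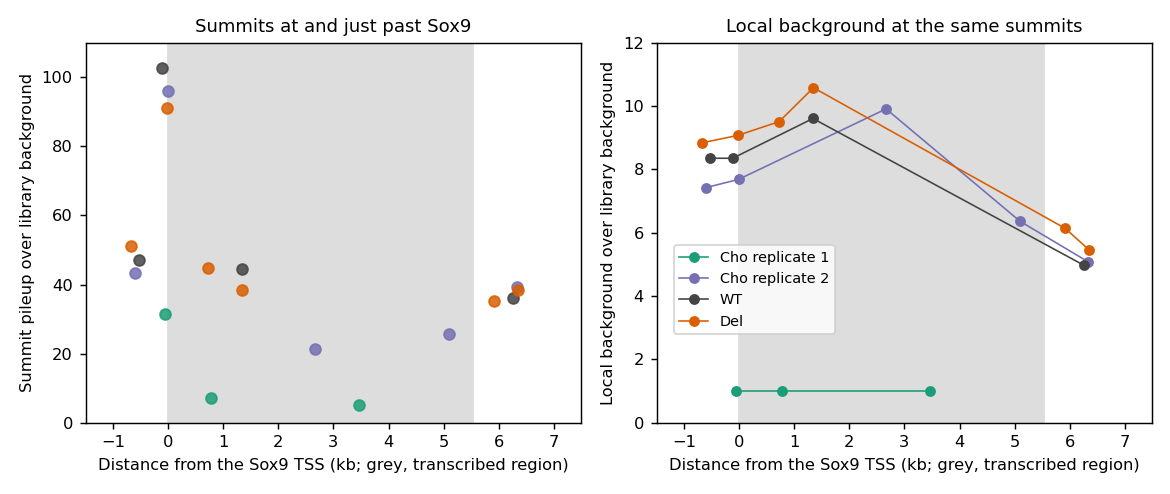
Summits from 1 kb upstream of the Sox9 TSS to just past the gene, by distance (kb), with 1 point per peak and library. Left, summit pileup over library background, where the promoter summits of Cho replicate 2, WT and Del lie between 91.0 and 102.6 and that of Cho replicate 1 at 31.4. Right, local background over library background at the same summits, which is 7.68 to 9.07 at the promoter in those 3 libraries and 1 throughout in Cho replicate 1.

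The downstream flank was denser in peaks than the genome as a whole. Cho replicate 1 had 61.4 peaks per Mb in the window, Cho replicate 2 151.5, WT 81.2 and Del 141.6. These densities were 2.06, 2.61, 2.28 and 2.14 times those of the same lists over the sequenced NCBIM37 genome, a length used for all 4 lists. Chromosome 11 as a whole was at 37.8, 83.1, 53.3 and 93.6 peaks per Mb, so the window stood above its chromosome too. The median fold enrichment in the window was 7.39, 6.87, 6.43 and 6.29, against 6.33, 7.93, 6.86 and 6.25 over the whole lists. The window thus differed from the lists more in the number of its peaks than in their size.

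The peaks were not spread evenly. In the first 100 kb after the TSS the libraries had 4, 11, 2 and 11 peaks. From 300 to 400 kb, within the 2610035D17Rik transcript, they had 6, 26, 12 and 23, and from 600 to 700 kb, inside the long Slc39a11 gene, 3, 5, 3 and 5. The counts rose again to 10, 22, 14 and 23 in the last 100 kb, where several genes start. By density the 2610035D17Rik transcript, 158 kb long, had 63.3, 265.9, 101.3 and 215.3 peaks per Mb.

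**Figure D2:**
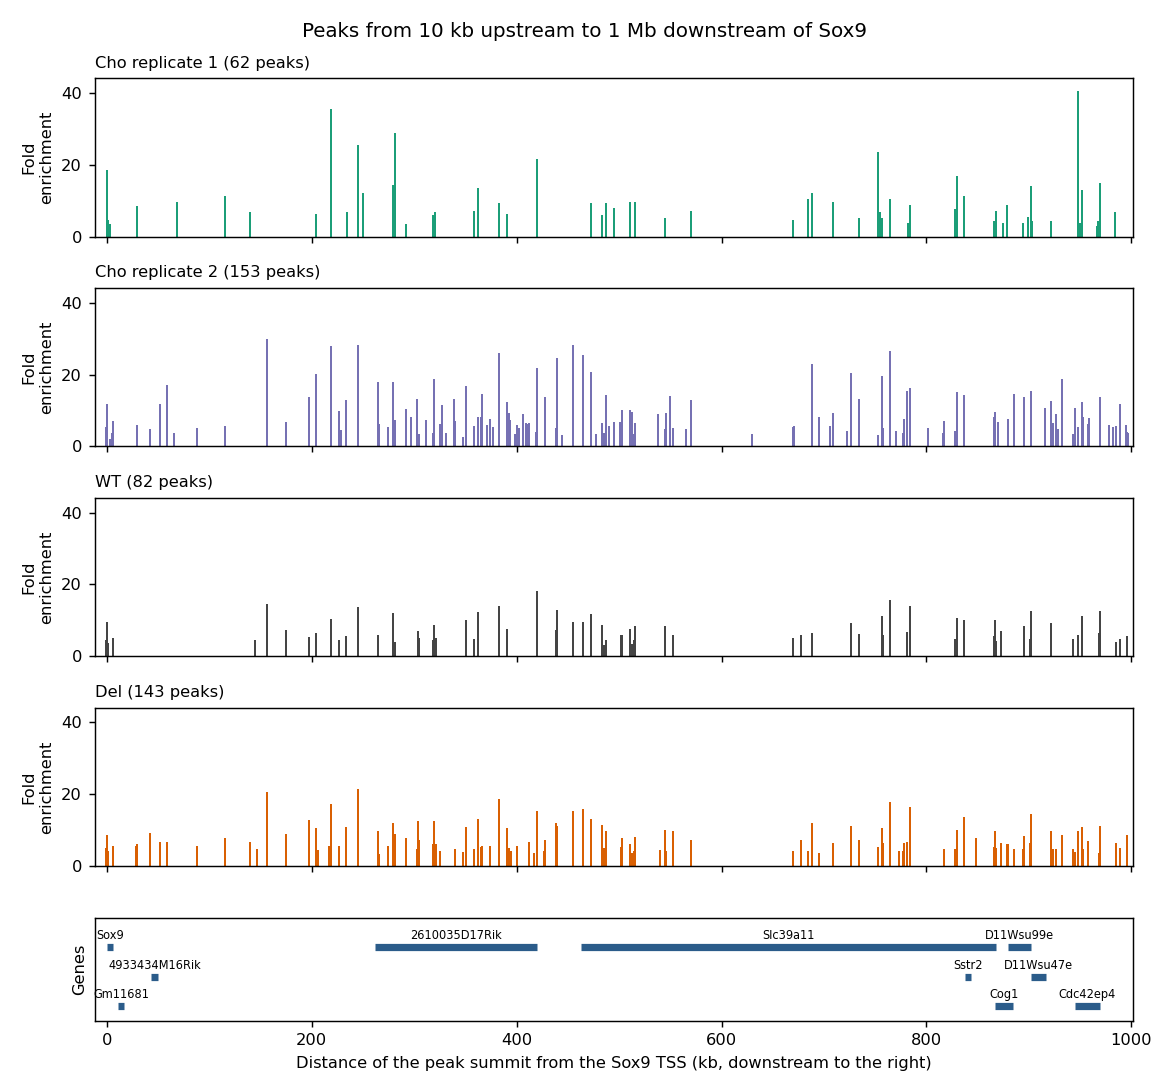
Fold enrichment of each peak by distance of its summit from the Sox9 TSS (kb), 1 panel per library, with the genes of the window drawn to scale below. Every peak with a fold enrichment above 20 lies at 156.0 kb or beyond, and WT shows no peak between 6.25 and 144.7 kb.

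**Figure D3:**
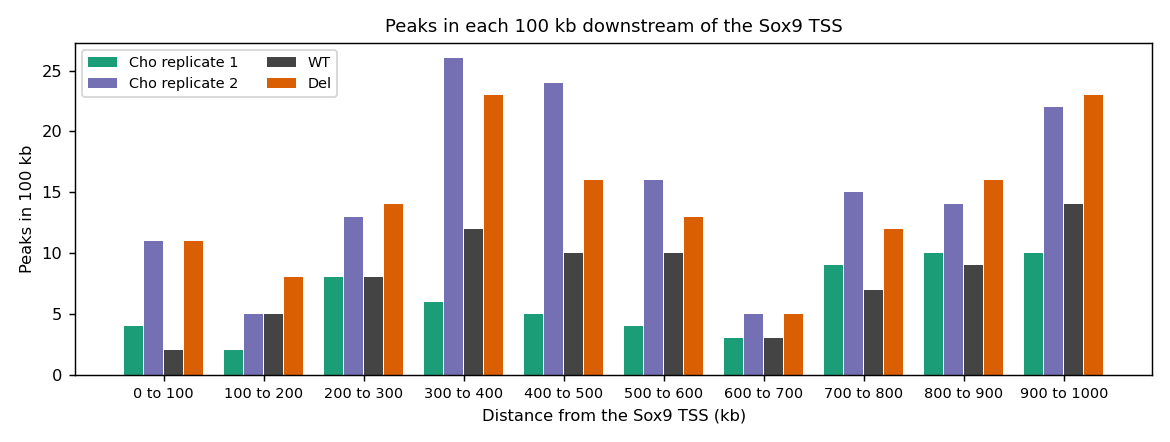
Number of peaks in each 100 kb downstream of the Sox9 TSS, 1 bar per library. Cho replicate 2 reaches 26 and Del 23 from 300 to 400 kb, and no library has more than 5 from 600 to 700 kb.

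The 4 lists formed 211 sites when summits within 150 bp of each other were joined. Of these, 35 sites (16.6%) were called in all 4 libraries, 34 in 3, 53 in 2 and 89 in 1. Without Cho replicate 1, 62 sites were called in all 3 remaining libraries. The median of the highest fold enrichment at a site fell with that number, from 14.3 at sites of 4 libraries to 10.3, 7.05 and 4.91. The highest value is taken over the libraries that called the site, so it tends to be larger where more of them did. This fall therefore does not show that shared sites are stronger. The sites called in a single library were mostly from the deepest list, with 51 from Cho replicate 2, 18 from Del, 16 from Cho replicate 1 and 4 from WT. No interval of another library overlapped 47 of the sites from Cho replicate 2, 11 from Del, 13 from Cho replicate 1 and 1 from WT. By the NCBIM37 annotation, 97 sites lay in introns, 36 between genes, 18 within 1 kb of a TSS and 9 in exons, and the 51 sites seen only in Cho replicate 2 were not annotated. These site counts have no share over the genome beside them, so they do not show what is particular to the window. Counted by WT peaks, 46.3% were found in all 3 other libraries, against 43.2% over the genome. The share found in none of them was 1.22%, against 2.78%.

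The 10 strongest sites past the gene that all 4 libraries called fell into distal sites and promoters. At +245.0 kb, between genes, the fold enrichments were 25.3, 28.3, 13.8 and 21.4. At +219.0 kb, also between genes, they were 35.5, 27.98, 10.5 and 17.3. Both sites, whose sequences are the first 2 above, were higher in the Cho libraries than in WT or Del, and higher in Del than in WT. By pileup over library background the +245.0 kb site was at 43.1, 61.3, 58.3 and 71.9, so Cho replicate 1 was then the lowest and not above WT.

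A group inside the noncoding transcript 2610035D17Rik came next. Its own promoter, at +419.6 kb, had fold enrichments of 21.5, 21.7, 18.1 and 15.3, and the WT value was the highest of any WT peak in the window. The intronic site at +383.0 kb had 9.29, 26.1, 14.0 and 18.6. The intronic site at +279.0 kb, which holds 2 AP-1 motifs, had 14.4, 17.9, 12.04 and 12.1. Of these 3, the +279.0 kb site was nearly equal in WT and Del, while the promoter was higher in WT and the +383.0 kb site higher in Del.

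Slc39a11, which encodes a zinc transporter, held 3 of the 10 sites. At +764.4 kb, in an intron, the fold enrichments were 10.6, 26.7, 15.7 and 17.99. At +783.6 kb they were 8.87, 16.3, 14.1 and 16.5, and this site lay 8 bp from a second Slc39a11 start in RefSeq. At +472.8 kb, in an intron, they were 9.29, 20.6, 11.6 and 13.1. Cho replicate 1 was the lowest and Cho replicate 2 the highest or near it at all 3 of these sites.

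Promoters of protein-coding genes made up the remaining 2. The shared start of D11Wsu99e and D11Wsu47e, at +901.9 kb, had fold enrichments of 13.9, 15.6, 12.7 and 14.4. The Cdc42ep4 promoter at +969.6 kb, of a gene for a Cdc42 effector, had 14.8, 13.9, 12.6 and 11.2. Of the 10 sites these varied the least in fold enrichment across libraries. Their local backgrounds were 4.003 and 6.04 times the library background in WT, against 1.64 at +245.0 kb and 1.47 at +219.0 kb. Distal sites and promoters were not split in this way throughout. In WT the value was 2.19 at the distal +764.4 kb site and 1.75 at the Slc39a11 start at +783.6 kb. In Cho replicate 2 it was 4.49 at +764.4 kb and 4.38 at the +901.9 kb promoter.

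**Figure D4:**
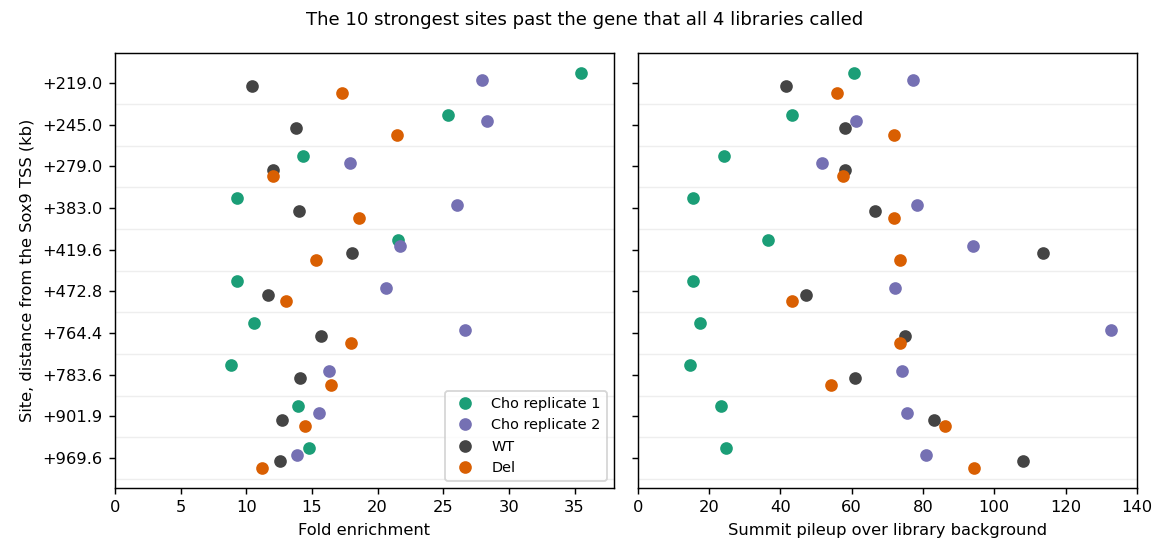
The 10 sites past the gene with the highest geometric mean fold enrichment among those called in all 4 libraries, ordered by distance from the Sox9 TSS. Left, fold enrichment; right, summit pileup over library background; 1 point per library. Cho replicate 1 leads at +219.0 kb on the left with 35.5 and is the lowest at 9 of the 10 sites on the right.

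Some of the tallest peaks were not among these 10 and were picked out after their values were seen. At +156.0 kb, between genes, Cho replicate 2 had 29.9, WT 14.5 and Del 20.7, and Cho replicate 1 had no peak. At +947.9 kb, in a Cdc42ep4 intron, Cho replicate 1 had its highest value of the window, 40.5, while the others had 5.54, 5.97 and 9.67. At +281.1 kb, in 2610035D17Rik, Cho replicate 1 had 28.7 and the others 7.32, 3.98 and 8.86. At +752.4 kb, in Slc39a11, Cho replicate 1 had 23.6, Cho replicate 2 3.07 and Del 5.24, with no WT peak.

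Among the remaining protein-coding genes, the promoters of Sstr2, Cog1 and Slc39a11 were called in all 4 libraries and that of Cpsf4l in 1. The Sstr2 promoter, of a somatostatin receptor, had fold enrichments of 11.4, 14.3, 10.2 and 13.8, at summits about 0.6 kb upstream of its start. Cog1, of a Golgi complex subunit, and Slc39a11 start close together and shared a peak with 7.18, 9.47, 10.2 and 9.74. Cpsf4l, a paralog of a polyadenylation factor, had a peak only in Cho replicate 2, with 4.91.

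The 2 Cho replicates shared 42 sites, which was 67.7% of the 62 in Cho replicate 1 and 27.5% of the 153 in Cho replicate 2. Counted by peaks, 41 of the 62 peaks of Cho replicate 1 had a summit of Cho replicate 2 at the same distance, or 66.1%, against 60.7% over the genome. Across the 42 shared sites the Spearman correlation of fold enrichment was 0.26. These points share 2 libraries of unlike depth and background. The strongest sites called in Cho replicate 1 alone were at +250.4 kb with 12.2, +68.5 kb with 9.71 and +495.5 kb with 8.02. In Cho replicate 2 alone they were at +350.0 kb with 16.9, +549.2 kb with 14.0 and +339.2 kb with 13.2. The wide +350.0 kb interval was overlapped by WT and Del peaks whose summits lay near +350.4 kb, so it was not particular to that library.

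Both genotypes were also compared with the Cho lists. In Cho replicate 1, 47 of the 82 WT peaks (57.3%, against 57.7% over the genome) and 60 of the 143 Del peaks (42.0%, against 43.1%) had an overlapping peak. A summit of Cho replicate 2 lay at the same distance, within 150 bp, for 61 WT peaks (74.4%, against 72.1%) and for 102 Del peaks (71.3%, 63.2% to 78.6%, against 59.7%). Of the 62 peaks of Cho replicate 1, 37 overlapped a WT peak (59.7%, against 58.7%) and 48 a Del peak (77.4%, against 80.8%). Of these 6 shares, that of Del peaks matched in Cho replicate 2 was the one whose counting interval lay wholly above the share over the genome.

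The next question was whether the flank differed between WT and Del. Nearly all WT peaks were also present in Del. Of the 82 WT peaks, 80 (97.6%, 95% exact binomial interval 91.5% to 99.7%) overlapped a Del peak, against 95.9% of WT peaks over the genome. Of the WT peaks, 38 were found in all 3 other libraries (46.3%, against 43.2%) and 1 in none of them (1.22%, against 2.78%). In the other direction, 78 of 143 Del peaks (54.5%, 46.0% to 62.9%) overlapped a WT peak, against 49.4% over the genome. Del had 1.74 times as many peaks as WT in the window and 1.86 times over the genome. Taking equal numbers of the strongest peaks genome-wide, which sets the ratio over the genome at 1, left 82 in WT and 74 in Del, a ratio of 0.902.

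Sharing followed the pileup in Del. Of Del peaks with a summit pileup of 4 to 7 reads, 2 of 18 (11.1%) overlapped a WT peak, and of those with 8 to 11 reads, 6 of 32 (18.8%). With 12 to 19 reads the number was 26 of 47 (55.3%), and with 20 or more it was 44 of 46 (95.7%). The same classes had 7.77%, 24.4%, 56.8% and 93.6% over the genome. The window thus lay within its counting interval of the genome at each pileup.

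The 78 pairs of overlapping WT and Del peaks were close in size. The median log2 ratio of fold enrichment, Del over WT, was 0.21, against 0.26 over all 83134 pairs. By summit pileup over library background it was 0.035, against −0.031. Of the 78 pairs, 58 had the higher fold enrichment in Del (74.4%), against 74.3% over the genome. A change of at least 2-fold upward was seen in 3 pairs (3.85%), against 5.98%, and of at least 2-fold downward in 0 pairs, against 0.0794%. Across the 78 pairs the Spearman correlation of fold enrichment was 0.78, and it was 0.76 over all pairs. The pairs share 2 libraries that differ in depth.

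The 3 pairs with the largest upward ratios had few reads in WT. At +197.4 kb, between genes, fold enrichment was 4.64 in WT and 12.9 in Del (log2 ratio 1.48), from 6 and 25 reads. At +281.0 kb it was 3.98 and 8.86 (1.15), from 6 and 24 reads. At +486.8 kb, in a Slc39a11 intron, it was 4.48 and 9.92 (1.15), from 6 and 21 reads. Scaled to library background the ratios were 2.399 (0.961 to 7.15), 2.30 (0.917 to 6.89) and 2.02 (0.787 to 6.10), and each interval included 1.

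The largest downward ratio was at +515.7 kb, in Slc39a11, where WT had 8.47 and Del 4.75 (−0.84), from 15 and 14 reads. Next were +196.8 kb (−0.42) and +510.3 kb (−0.34). The +196.8 kb and +197.4 kb pairs lay close to each other and had log2 ratios of opposite sign. The +196.8 kb pair had 7 reads in each library and a scaled ratio of 0.576 (0.172 to 1.92). The intervals of both pairs included 1, so no change was resolved at either. One pair had a scaled pileup ratio whose interval lay above 1 (1.28%, against 0.502% over the genome). It was the +947.9 kb site of the Cdc42ep4 intron, with 16 reads in WT and 52 in Del and a ratio of 1.87 (1.05 to 3.51). No pair had an interval below 1 (0%, against 1.43%).

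The median log2 ratio of fold enrichment varied along the window. It was 0.02 over the 2 promoter pairs, −0.22 at the 1 pair in the rest of the gene and 0.17 at the 1 pair up to 10 kb past the 3′ end. It was 0.63 over 9 pairs from there to 2610035D17Rik, 0.40 over 16 pairs in that transcript and 0.39 over 4 pairs between it and Slc39a11. It was 0.19 over 25 pairs from Slc39a11 to Sstr2 and 0.11 over 20 pairs beyond. The highest median was thus in the stretch before 2610035D17Rik, and the few pairs nearest the gene did not share it. Over all 83134 pairs the median was 0.26, with quartiles of −0.01 and 0.57. Each stretch holds few pairs, all from 1 library per genotype, so these medians do not establish a pattern along the flank. By pileup over library background the medians of the stretches, in the same order, were −0.03, −0.21, 0.09, 0.30, 0.22, −0.01, −0.13 and 0.06. The median WT pileup was 9 reads in the stretch before 2610035D17Rik and 11 to 27 elsewhere. Whether the smaller pileups play a part was not tested.

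**Figure D5:**
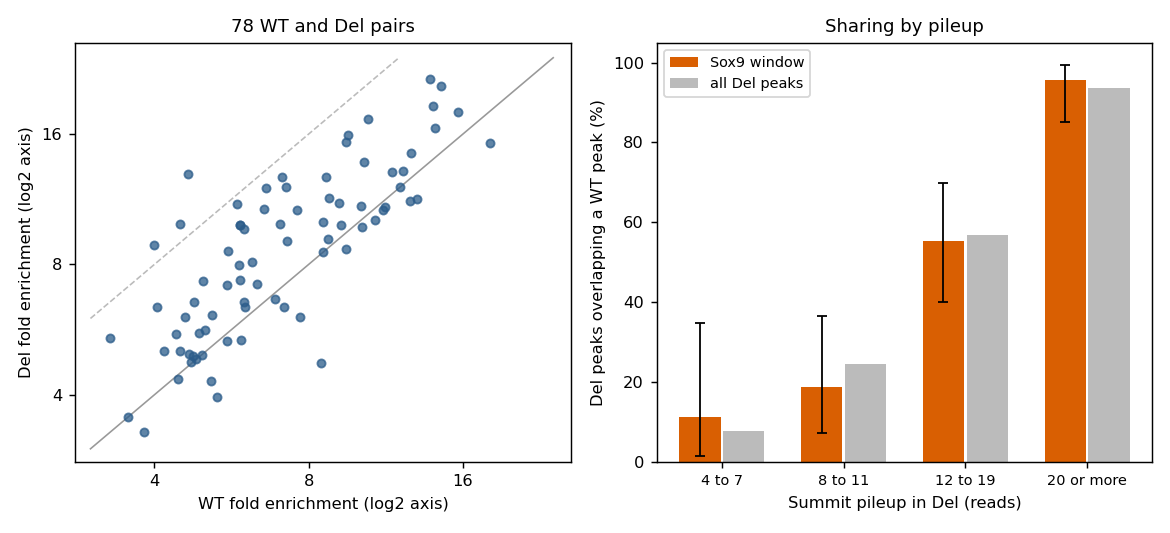
Left, fold enrichment of the 78 WT and Del pairs on log2 axes, with the line of equal values (solid) and of a 2-fold higher value in Del (dashed). Most points lie above the solid line, and 3 lie above the dashed one. Right, the share of Del peaks that overlap a WT peak, by Del summit pileup, in the Sox9 window (orange, bars of 95% exact binomial intervals) and over all Del peaks (grey), which rises from 11.1% to 95.7% in the window.

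Peaks in 1 of the 2 libraries were mostly weak. WT had 2 peaks without a Del partner, at +144.7 kb with a fold enrichment of 4.41 and 5 reads, and at +484.8 kb with 3.19 and 4 reads. Del had 65 without a WT partner, with fold enrichments of 3.22 to 9.22 and a median of 4.92. Their median pileup of 10 reads corresponds to 5.76 reads in WT at equal height over background, where 4 was the smallest pileup WT called. The 2 largest pileups among these 65 lay at Sox9 itself, where the local background was high. They were 28 reads at +0.726 kb, with a fold enrichment of 4.17, and 22 reads at +5.92 kb, with 4.75.

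The strongest of the Del peaks by fold enrichment was at +42.1 kb with 9.22 and 14 reads. It lay within 1 kb of the 4933434M16Rik start, and its sequence is the last of those printed. The next were at +932.2 kb with 8.61 and at +848.6 kb with 7.99. Of the 65 peaks, 48 were found in either Cho replicate (73.8%, 61.5% to 84.0%), against 58.2% over the genome. For Cho replicate 2 alone it was 41 (63.1%, 50.2% to 74.7%), against 42.9%, and for Cho replicate 1 it was 14 (21.5%, 12.3% to 33.5%), against 27.3%. The +42.1 kb and +932.2 kb peaks were in Cho replicate 2 and not in Cho replicate 1, and the +848.6 kb peak was in neither.

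The widest gap without a WT peak ran from 6.25 kb to 144.7 kb, or 138.5 kb, and was chosen after it was seen. In it Del had 9 peaks with fold enrichments of 3.69 to 9.22 and pileups of 5 to 14 reads, Cho replicate 2 had 9 with 3.72 to 17.1, and Cho replicate 1 had 4 with 6.76 to 11.4. The Del peak of 14 reads at +42.1 kb corresponds to 8.06 reads in WT at equal height over background. The site at +115.6 kb was called in the 3 libraries other than WT, with 11.4 and 5.75 in the Cho replicates and 7.99 in Del. The Del peaks of the gap thus fell in the pileup classes where 7.77% to 56.8% of Del peaks over the genome had a WT partner.

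Motifs were counted within 100 bp of each summit, on both strands, for peaks more than 10 kb past the 3′ end. In WT the SOX motif was in 17.9% of 78 peaks, against 17.8% of all WT peaks, and the AP-1 motif in 19.2%, against 19.4%. In Del they were in 19.7% and 23.4% of 137 peaks, against 19.7% and 23.1%. The AP-1 motif was in 42.4% (29.6% to 55.9%) of the 59 peaks of Cho replicate 1, against 33.3% of all its peaks. The GC box, GGGCGG, was in 8.97% of the WT peaks, against 18.5% over the genome, and the NFI half-site, TTGGC, in 51.3%, against 43.5%. The RUNX motif, TGTGGT, was in 16.7% of the WT peaks, against 19.9%, and the TEAD motif, GGAATG, in 17.9%, against 17.5%. The PITX motif, TAATCC, was in 3.85%, against 4.62%. The CCAAT box was in 19.2%, against 23.8%, and TATAAA in 7.69%, against 7.09%. Of the WT shares, that of the GC box had a counting interval, 3.68% to 17.6%, that left out the share over the genome. The same held for the GC box in Cho replicate 1, at 5.08% (1.06% to 14.1%) against 15.6%, and for the NFI half-site in Del, at 50.4% (41.7% to 59.0%) against 41.5%. For the other motifs and libraries of the 3 measured the interval included it. With 9 motifs in 3 libraries, some 95% intervals may leave it out by counting error alone. The peaks were not matched to the whole lists for their share of promoters, and the part of that share was not tested. Of the 36 WT peaks past the gene that were found in all 3 other libraries, 13 held the AP-1 motif (36.1%, 20.8% to 53.8%), against 27.3% of 37928 such peaks over the genome, and 7 the SOX motif (19.4%, 8.19% to 36.0%), against 16.5%. Both intervals included the share over the genome.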

How the data were processed

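Per the labels and the study's methods, the authors processed ATAC-Seq reads with fastp, aligned them with Bowtie2 2.4.4, removed duplicates with Picard, used SAMtools 1.9 and called peaks with MACS2 2.2.4 at q 0.05, per library. Tool versions follow the submitters' processing notes, which give Picard 2.20.7 where the methods give another version. The deposited lists give a fold enrichment (ratio), −log10 p-values and q-values, and a score of 10 times the −log10 q-value. The notes name mm9, but positions of Cho replicate 2 exceed mm9 chromosome ends and were read as GRCm38. In the window, 22 RefSeq promoters (GRCm38.p6) matched NCBIM37 with 1 identical shift, and the RefSeq Sox9 start lies 14 bp upstream of the GENCODE one. Genes were from GENCODE on NCBIM37.

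The strongest entry per interval was kept. Fold enrichment and −log10 p were solved for the whole-read summit pileup and the background, which succeeded for 100% of peaks. The most frequent background served as the library background, and divided by the smallest peak width it gave tags per Mb. The solver was tested on simulated data. WT and Del peaks were compared by overlap of at least 1 bp (bedtools 2.31.1), and pairs were mutual best overlaps. Intervals for ratios and shares are exact and cover counting error only. Scripts ran under Python 3.11.15 with scipy 1.17.1, pandas 2.3.3 and numpy 2.4.6.

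Sites named were those within 10 kb of the gene, the 10 strongest farther sites called in all 4 libraries, the 3 strongest unpaired peaks of WT and Del, the 3 highest and lowest pair ratios, promoters of protein-coding genes, and the 3 strongest sites of each Cho replicate alone. Members, lists and motifs were chosen with earlier results of these data known. The 9 motifs searched are spelled out beside their results. Alternatives covered q thresholds, overlap, equal list lengths, window end, site distance and measure. Signal tracks and other assays were not analysed here.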

Additional observations from a re-analysis of the deposited data

How the results depend on the processing

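Of 66 alternative values, 55 were classed as the same as the reported one, 8 as moved and 3 as reversed. The first class was wide and took in plain counts. At q below 1e-05 it held 57 WT peaks against 82, and 26 sites called in all 4 libraries against 35. Keeping every summit entry could change Cho replicate 1 only, since the other lists had 1 entry per interval. The Del to WT ratio of peak numbers turned to 0.902 when both lists were cut to the same length, as that construction fixes the total. The median log2 ratio of the 78 pairs became 0.035 with pileup over library background, −0.081 with pileup over tag depth and 0.80 with the −log10 q-value, against −0.031, −0.15 and 0.73 over all pairs. The Sox9 promoter log2 ratio of −0.13 became 0.46 with the −log10 q-value. The cause was not tested for these measures. The share of WT peaks with a Del peak was 100% at q below 1e-05 and 70.7% at equal list length. For Del peaks with a WT peak it was 43.4% where 50% of the peak had to overlap and 75.7% at equal list length. Leaving out 1 Cho replicate gave 34 to 62 sites called in all remaining libraries, the higher number without Cho replicate 1. The Cho mean at the promoter was 11.8 to 18.6 with 1 replicate left out, and 63.8 in pileup over library background, which is another unit. Joining sites by overlapping intervals, chosen after seeing the data, gave 47 sites in all 4 libraries. No paired analysis was possible because each genotype has 1 library and no comparison rests on a test across replicates. WT had the lowest estimated depth, and its part in the sites WT did not list was not tested. No value here separates a library from its genotype.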
